A study of Mus musculus with 6 samples.

Results

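The genes followed here are 10 that encode mucins or other products of intestinal goblet cells: Muc2, Muc13, Muc3, Tff3, Agr2, Fcgbp, Zg16, Clca1, Spink4 and Retnlb. They were chosen by name, and each was then sorted by whether its level across the libraries followed Muc2 or the tuft cell genes. A row of the expression table was used for 9 of the 10, out of 23420 genes in all, and Muc3 was not analysed here. Ileal tuft cells were the source of the RNA, sorted from C57BL/6J mice of the genotype Gfi1b-eGFP/+, and the 6 libraries, labelled as mouse replicates 1 to 6, make up 1 group. In these mice 1 copy of the Gfi1b locus drives green fluorescent protein, so the sort depends on the activity of that locus in live cells that were EpCam-positive and CD45-negative. No treatment, age or sex is given in the labels, and no control or unsorted library was part of this group. The results below are therefore levels within libraries and the way genes vary together between them.

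Goblet cells fill the mucus layer of the gut. Muc2 is the large gel-forming mucin that polymerises in their secretory pathway and expands on release, and most of the other genes encode proteins that fold, cross-link, cleave or accompany it. Tuft cells are a separate secretory lineage of the same epithelium, known for taste-like signalling and for the release of interleukin-25, and they do not build a mucus granule. Muc13 differs from Muc2 in kind: it is a transmembrane mucin of the apical surface, present on several epithelial cell types. In a sorted bulk sample, fewer cells of a type and less RNA per cell cannot be told apart.

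The table uses older symbols for the calcium-activated chloride channel regulator family. It holds 6 Clca symbols and 0 of the 6 letter-suffixed symbols that RefSeq now uses, and RefSeq gives Clca3 only as a former symbol of the goblet cell gene Clca1. The row named Clca3 was therefore used for Clca1, a choice made after the table had been seen, and it is written Clca3 below. RefSeq also lists Clca2 as a former symbol of Clca1, as well as of Clca3a2, and as the current symbol of another gene. The row named Clca2 had a mean of 15.2 TPM and was not used, so the symbols alone do not settle the choice. The row spelled Clca1, an older symbol of Clca3a1, had 0.16 to 6.67 TPM and was highest in replicate 1 and lowest in replicate 6. On the mouse genome build GRCm38, the GENCODE M21 annotation places Muc2 at chr7:141690340-141754693 and Fcgbp at chr7:28071236-28120862, both on the plus strand. It places Zg16 at chr7:127050156-127087328 on the minus strand, so 3 of the genes lie on chromosome 7 but far apart. Muc13 is at chr16:33794037-33819934 and Retnlb at chr16:48816856-48818892, both on the plus strand. Agr2 lies at chr12:35992907-36004087 and Spink4 at chr4:40920052-40931395 on the plus strand, and Tff3 at chr17:31125306-31129646 and Clca1 at chr3:145003817-145032776 on the minus strand.

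Promoter sequences are shown for the genes that could be matched, 4 of 9, because 3 of them were placed with Muc2 and the other, Muc13, with the tuft genes. Each is the 250 bases before a RefSeq start site on GRCm38.p6, printed 5′ to 3′ on the plus strand, which is the strand of the gene. Capitals mark the letters of 4 motifs searched on both strands: the E-box CAGNTG, read by basic helix-loop-helix factors such as Atoh1, the CDX motif TTTATNG, the FOXA motif TGTTTAC and the unfolded protein response motif TGACGTG. No marked motif overlapped another.
Muc2 (chr7:141690090-141690339): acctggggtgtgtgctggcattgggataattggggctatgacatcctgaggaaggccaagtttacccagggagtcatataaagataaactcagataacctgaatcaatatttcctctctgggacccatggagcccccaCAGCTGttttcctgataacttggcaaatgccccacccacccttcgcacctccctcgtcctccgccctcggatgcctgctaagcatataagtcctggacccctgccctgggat
Agr2 (chr12:35992675-35992924): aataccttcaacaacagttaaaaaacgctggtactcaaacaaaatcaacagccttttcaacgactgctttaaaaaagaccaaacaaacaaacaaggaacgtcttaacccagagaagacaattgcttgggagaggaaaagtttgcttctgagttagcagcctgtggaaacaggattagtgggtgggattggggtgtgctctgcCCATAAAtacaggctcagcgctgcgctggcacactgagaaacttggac
Fcgbp (chr7:28070986-28071235): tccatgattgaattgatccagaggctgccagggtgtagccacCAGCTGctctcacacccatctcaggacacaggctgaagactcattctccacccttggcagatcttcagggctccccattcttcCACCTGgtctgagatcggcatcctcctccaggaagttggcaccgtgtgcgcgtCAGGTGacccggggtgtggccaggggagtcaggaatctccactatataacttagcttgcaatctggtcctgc
Muc13 (chr16:33793787-33794036): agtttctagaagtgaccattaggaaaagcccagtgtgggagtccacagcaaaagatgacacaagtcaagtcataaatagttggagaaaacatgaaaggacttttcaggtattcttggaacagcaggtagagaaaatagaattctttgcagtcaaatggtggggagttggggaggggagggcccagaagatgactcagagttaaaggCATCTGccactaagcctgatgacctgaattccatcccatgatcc

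The Muc2 window held 1 E-box, CAGCTG, starting 112 bases before the start site, the Fcgbp window held 3 and the Muc13 window held 1. The Agr2 window held no match to the E-box letters CAGNTG and 1 CDX match, 48 bases before the start. Other forms of the E-box were not searched. An E-box is common: 44.8% of all 32851 RefSeq promoter windows of this length hold the letters, against 9.81% for CDX, 3.17% for FOXA and 1.65% for the unfolded protein response motif. A second RefSeq start of Muc13 also had 1 E-box in its window. The motif thus did not separate Muc13 from the genes placed with Muc2, and a match of letters does not show a bound site. Tff3, Zg16, Clca3, Spink4 and Retnlb are named only.

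Values are transcripts per 1000000 transcripts (TPM), a measure corrected for transcript length and scaled to the same total in every library. The 13 tuft marker genes used here were above 0 in every library, with the kinase gene Dclk1 at 628 ± 130, the ion channel gene Trpm5 at 1141 ± 211 and the actin regulator gene Avil at 584 ± 164 TPM (SD, n = 6). This does not check purity, because the 9 Paneth and 8 enterocyte genes used below were also above 0 in every library. Of these, Fabp1 had a mean of 7410 and Defa24 of 5147 TPM. Between 13044 and 13308 genes were above 0 per library. The ribosomal RNA precursor Rn45s took 23.1% to 32.6% of TPM, and Gm20594 took 1.56% to 2.13% in replicates 1 to 3 but 5.18% to 5.64% in replicates 4 to 6, so relations are also given after centring within these sets. All relations use log2(TPM + 1). The number of reads behind a TPM value is not kept, so the depth of the libraries is unknown.

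The gel-forming mucin and its folding and trefoil partners varied widely. Muc2 had 48.1, 48.5, 134, 171, 207 and 416 TPM in replicates 1 to 6, a mean of 170.8 ± 136 (SD, n = 6). Replicates 1 and 2 were level and lowest, and replicate 6 stood above the other 5. Agr2, a protein disulphide isomerase of the endoplasmic reticulum needed for Muc2 assembly, had 86.8, 96.3, 386, 252, 312 and 901 TPM, a mean of 339 ± 300. Tff3, the trefoil peptide secreted with Muc2, had 197, 206, 739, 457, 594 and 999.8 TPM, a mean of 532 ± 313. Both shared the low pair of libraries and the high replicate 6 with Muc2, but for both replicate 3 came second, where in Muc2 it was only above replicates 1 and 2. The highest value plus 1 over the lowest plus 1 was 10.28-fold for Agr2, 8.49-fold for Muc2 and 5.05-fold for Tff3.

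The other secreted proteins of the goblet granule were also highest in replicate 6 and lowest in replicate 1 or 2. Zg16, a lectin that binds the cell wall of Gram-positive bacteria, had 507, 349, 602, 799.5, 1075 and 1757 TPM, a mean of 848 ± 511, the highest of the genes. Spink4, a Kazal-type peptide, had 163, 284, 505, 469.6, 584 and 814 TPM, a mean of 469.8 ± 229. Replicate 6 was again highest, and the lowest was replicate 2 for Zg16 and replicate 1 for Spink4. Clca3, a secreted protein with metalloprotease activity towards Muc2, had 61.8, 29.4, 154, 113, 75.6 and 202 TPM, a mean of 106 ± 63.8. Fcgbp, which binds Muc2 in the mucus gel, had 146, 67.2, 128, 174, 211 and 229 TPM, a mean of 159 ± 59.1. In both, replicate 2 was lowest, and in Fcgbp replicate 1 lay above replicate 3, unlike in Muc2. The ranges were 6.68-fold for Clca3, 5.02-fold for Zg16, 4.98-fold for Spink4 and 3.38-fold for Fcgbp.

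Muc13 was nearly level. It had 922, 916, 832, 836, 761 and 694 TPM in replicates 1 to 6, a mean of 827 ± 88.5 (SD, n = 6) and a range of 1.33-fold. Its order was the reverse of that of Muc2 at both ends, with replicate 1 highest and replicate 6 lowest. Retnlb, the resistin-like molecule of goblet cells known to be induced in type 2 immune responses, was listed at 0 in 5 libraries and at 0.62 TPM in replicate 4. It was at or near 0 throughout, so no pattern was read from it.

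**Figure D1:**
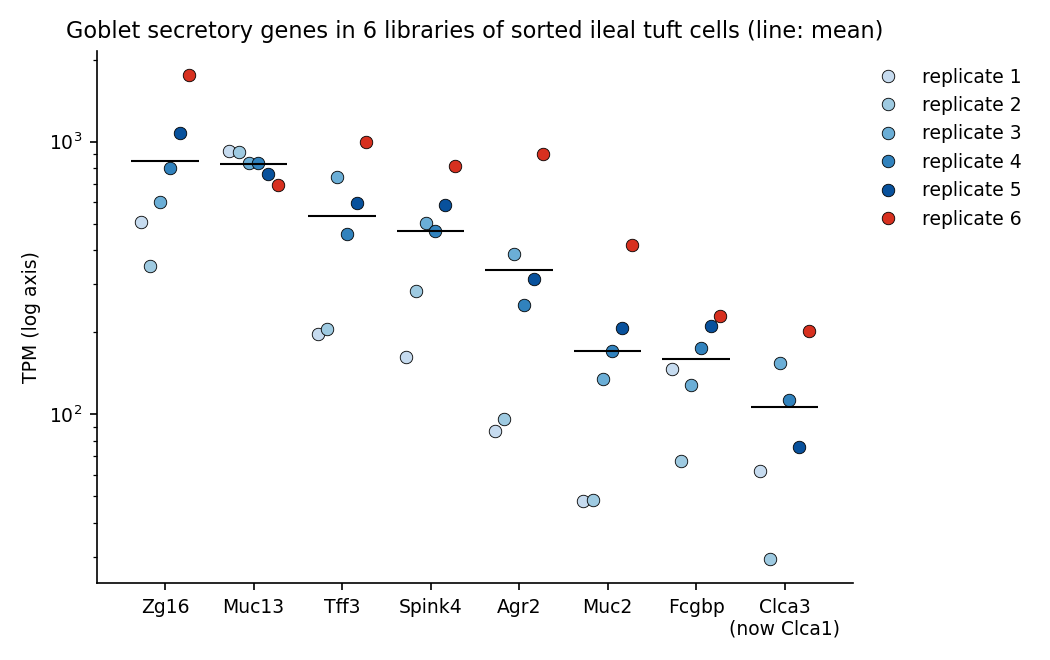
TPM (log axis) of 8 goblet secretory genes, ordered by mean, with 1 point for each of the 6 libraries and a line at the mean; Retnlb, at 0 in 5 libraries, is not drawn. Replicate 6 (red) is the highest point of 7 genes and the lowest of Muc13, and Muc13 spans 694 to 922 TPM where Agr2 spans 86.8 to 901 TPM.

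A range of 4-fold or more was found for 6 of the 9 genes with a row, against 13.5% of the 6986 genes whose mean reached 10 TPM (940 genes), whose median range was 2.24-fold. The 13 tuft genes ranged from 1.60-fold to 2.36-fold with a median of 1.92-fold, and 0 of them reached 4-fold. Muc13, as deposited, thus varied less than each of the tuft genes. Wide ranges were not limited to goblet genes: 8 of 9 Paneth cell genes reached 4-fold, with a range from 3.84-fold to 23.5-fold and a median of 6.95-fold. Paneth cells are the antimicrobial secretory cells of the crypt base. Without replicate 6, 3 of the goblet genes reached 4-fold.

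**Figure D2:**
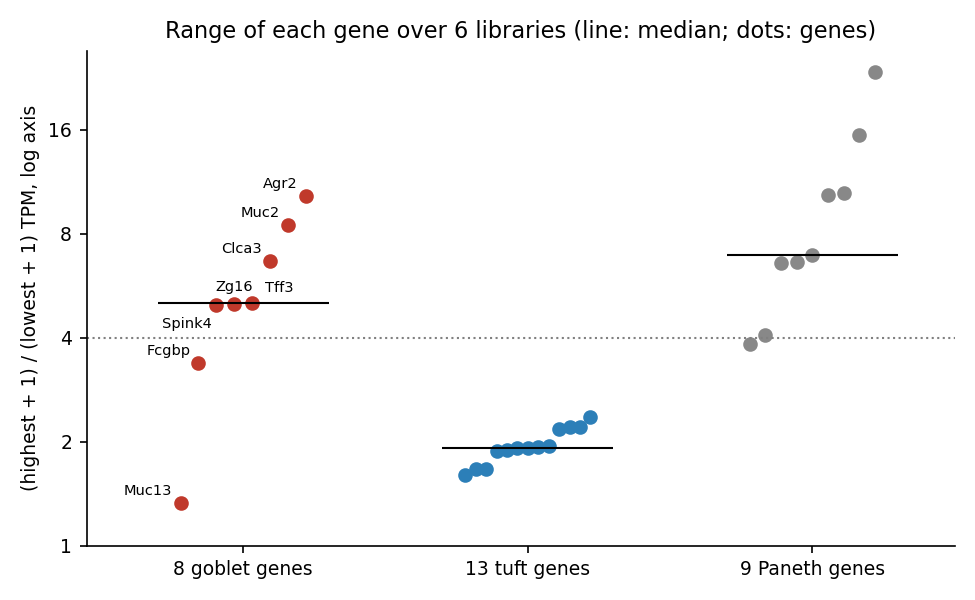
Range of each gene over the 6 libraries, as the highest value plus 1 over the lowest plus 1 in TPM (log axis), for 8 goblet, 13 tuft and 9 Paneth cell genes; lines are medians and the dotted line marks 4-fold. Of the goblet genes, 6 lie above 4-fold, Fcgbp at 3.38-fold lies just under it, and Muc13 at 1.33-fold lies below every tuft gene.

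Each gene was placed with Muc2 or with the tuft genes by which of them it kept the steadier ratio to, as the SD over libraries of the log2 difference. By this measure 7 of the 9 genes were placed with Muc2, with Muc2 itself counted among the 7. The share was 2.85% of the 6985 other genes whose mean reached 10 TPM (199 genes), a set that leaves out Muc2 and Retnlb. The measure also placed 6 of the 9 Paneth genes with Muc2, so this side was not particular to goblet genes. The SDs of those 6 relative to Muc2 were 1.10 to 1.52, wider than that of any goblet gene placed there. Of the goblet genes Agr2 was closest, with an SD of 0.36 relative to Muc2 and 1.52 relative to the tuft list. The corresponding SDs were 0.46 and 1.23 for Tff3, 0.50 and 1.04 for Zg16, 0.52 and 1.10 for Spink4, and 0.70 and 1.19 for Clca3. Muc2 itself, placed by its ratio to Tff3, had SDs of 0.46 and 1.46, where 0.46 is the same value that places Tff3. Fcgbp lay at the border with 0.80 and 0.82, and was placed with the tuft list after centring within the sets, without replicate 2 and without replicate 5. Muc13 was on the other side, with an SD of 1.37 relative to Muc2 and 0.19 relative to the tuft list. Most of the 6985 genes lay on that side too, so the placement of Muc13 shows a level gene and not a trait particular to tuft genes. Retnlb was placed there too, at 1.2 and 0.39, which any gene listed near 0 in all libraries would be. These placements are descriptions and carry no test.

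**Figure D3:**
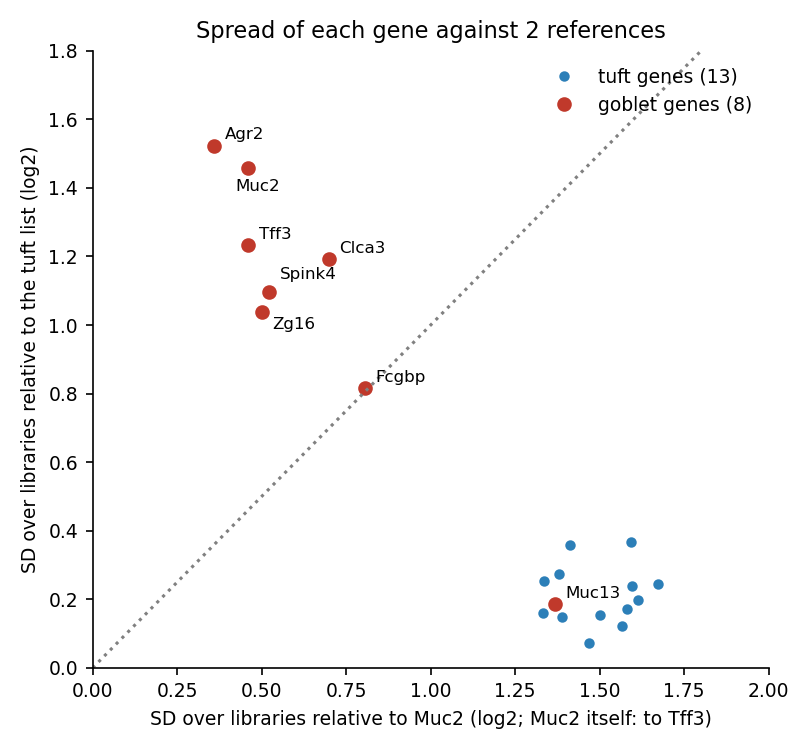
SD over the 6 libraries of the log2 ratio of each gene to Muc2 (x axis; to Tff3 for Muc2 itself) and to the median of the tuft list (y axis), for 8 goblet genes (red) and 13 tuft genes (blue); on the dotted line both are equal. Agr2, Muc2, Tff3, Spink4, Zg16 and Clca3 lie above the line, and Fcgbp lies on it at 0.80 and 0.82. Muc13 lies below it at 1.37 and 0.19, the side where most genes of the table were placed.

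The relation of each gene to Muc2 over the 6 libraries was tested by exact permutation over all 720 pairings, with p-values adjusted over 6985 genes. Of the 7 goblet genes tested, 5 had a Pearson r above 0 with an unadjusted p under 0.05, against 1.6% of all genes (112 genes, with 702 at a negative r). After median-of-ratios rescaling it was 6 of the 7, beside 236 genes at a positive and 324 at a negative r of 6987 tested. Without Rn45s and Gm20594 it was also 6, beside 261 and 356 of 8190 genes. None passed after adjustment, nor did any gene of the table (0.0%): the lowest adjusted p was 0.262, and the smallest p that 6 libraries allow is 0.00139. By r, Agr2 ranked 4, Zg16 5, Spink4 12, Tff3 14, Clca3 107, Fcgbp 133 and Muc13 6935 of the 6985 genes.

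For Agr2, r was 0.96 (exact permutation p = 0.0125, adjusted p = 0.353) and Spearman's rho 0.83 (exact permutation p = 0.0583). For Tff3, r was 0.94 (exact permutation p = 0.0125, adjusted p = 0.353) and rho 0.83 (exact permutation p = 0.0583). Both held within the sets of libraries, with r after centring of 1.00 for Agr2 and 0.98 for Tff3 (exact permutation p = 0.0278 for each, the smallest that 36 pairings allow). Without replicates 1 and 2, the libraries farthest from the median of Muc2, r was 0.82 for Agr2 and 0.64 for Tff3. The relation of Tff3 was thus weaker without those libraries, though r was 0.99 within replicates 4 to 6 alone.

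For Spink4, r was 0.94 (exact permutation p = 0.00417, adjusted p = 0.265) with rho 0.94 (exact permutation p = 0.0167), and r was 0.95 without replicates 1 and 2 and 0.88 after centring (exact permutation p = 0.0278). For Zg16, r was 0.95 (exact permutation p = 0.00556, adjusted p = 0.292) with rho 0.94 (exact permutation p = 0.0167), and r was 0.99 without replicates 1 and 2 and 0.84 after centring (exact permutation p = 0.111). Both relations were as strong without the lowest pair of libraries as with it. For Fcgbp, r was 0.80 (exact permutation p = 0.0472, adjusted p = 0.414) with rho 0.83 (exact permutation p = 0.0583), and r was 0.85 without replicates 1 and 2 but 0.43 after centring (exact permutation p = 0.611). For Clca3, r was 0.82 (exact permutation p = 0.0528, adjusted p = 0.425) with rho 0.71 (exact permutation p = 0.136), and r was 0.43 without replicates 1 and 2 and 0.86 after centring (exact permutation p = 0.111). The relation of Fcgbp was weak within replicates 1 to 3, at an r of 0.35, but not within replicates 4 to 6, at 0.85. That of Clca3 was weaker without both replicates 1 and 2, but r was 0.81 within replicates 4 to 6. It was 0.85 without replicate 1 alone and 0.73 without replicate 2 alone.

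Muc13 ran against Muc2, with r at −0.97 (exact permutation p = 0.00417, adjusted p = 0.265) and rho at −0.94 (exact permutation p = 0.0167), −0.96 without replicates 1 and 2 and −0.92 after centring (exact permutation p = 0.0278). This needs the scale of the whole table beside it. As deposited, the median r with Muc2 over all genes was −0.29 and 32.2% of genes had an r above 0, and the median gene was 0.20 lower on the log2 scale in replicate 6 than in replicate 1. After rescaling by median-of-ratios factors, which moved library medians by −0.16 to 0.15 on the log2 scale, the median r was −0.03 and that of Muc13 was −0.50 (exact permutation p = 0.314). Rescaled without Rn45s and Gm20594, which moved library medians by 0.40 to 0.67, the r of Muc13 was −0.63 (exact permutation p = 0.179). Its range was then 1.17-fold and 1.15-fold, so Muc13 stayed level under each scaling while its opposition to Muc2 depended on it. The r of the 6 genes placed with Muc2 stayed between 0.84 and 0.96 under both rescalings, and that of Clca3 became 0.85 (exact permutation p = 0.0347 and 0.0375).

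How much each gene differed for a given difference in Muc2 was estimated by a linear fit with limma over all genes. The slope, in log2 units per log2 unit of Muc2, was 1.00 ± 0.148 for Agr2 (SE, limma adjusted p = 0.213), so Agr2 differed between libraries by as much as Muc2. It was 0.74 ± 0.144 for Tff3, 0.67 ± 0.196 for Clca3, 0.65 ± 0.128 for Zg16 and 0.64 ± 0.133 for Spink4 (limma adjusted p = 0.348 to 0.369), and 0.42 ± 0.153 for Fcgbp (0.381). For Muc13 it was −0.13 ± 0.105 (0.639). In this fit, too, 0 of 6985 genes passed in either direction (0.0%).

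In TPM per TPM of Muc2, Agr2 stayed between 1.47 and 2.88 and was above Muc2 in 6 of 6 libraries, a difference of 0.93 ± 0.36 on the log2 scale (SD, n = 6). Tff3 ran from 2.40 to 5.51, Zg16 from 4.22 to 10.5, Spink4 from 1.96 to 5.85, Clca3 from 0.365 to 1.28 and Fcgbp from 0.551 to 3.04, while Muc13 ran from 1.67 to 19.2. The order by mean level was Zg16, Muc13, Tff3, Spink4, Agr2, Muc2, Fcgbp and Clca3. Several neighbours in it did not differ beyond their spread: Zg16 was above Muc13 in 2 of 6 libraries, Muc2 above Fcgbp in 2 and Tff3 above Spink4 in 4. Spink4 was above Agr2 in 5 of 6 libraries, Muc13 above Tff3 in 5 and Fcgbp above Clca3 in 5. The longest coding Muc2 model of the annotation has 2926 bases, short for a gel-forming mucin, and the authors' own gene models were not used here, so the level of Muc2 relative to other genes depends on the model length, while its differences between libraries do not.

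Within the 7 genes placed with Muc2, 21 of 21 pairs had a positive r, from 0.56 for Fcgbp with Spink4 to 0.98 for Tff3 with Agr2. The r of Muc13 with each of the 7 lay between −0.97 and −0.73. The placement fixes much of this, so these values are descriptions. Replicate 6 was the highest library for 7 of 7, and the lowest was replicate 1 for 4 and replicate 2 for 3. Replicates 4 to 6 were all above replicates 1 and 2 in 7 of 7 and above replicates 1 to 3 in 3 of 7.

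Summed over the 7 genes, the libraries held 1209.9, 1080.4, 2648, 2436, 3059.95 and 5319.9 TPM, a 4.92-fold range with replicate 2 lowest and replicate 6 highest. The 13 tuft genes together held 6222, 6017, 3864, 4628, 4059.7 and 4114 TPM. The goblet sum per tuft TPM was 0.194, 0.180, 0.685, 0.526, 0.754 and 1.29, a 7.20-fold range that no scaling of a library can alter. Muc2 per Dclk1 ran from 0.0586 to 0.755, 12.9-fold, and Muc13 per Dclk1 from 1.12 to 1.55, 1.38-fold. Without replicate 6 the goblet sum per tuft TPM ranged over 4.20-fold and Muc2 per Dclk1 over 6.92-fold, while the range of Muc13 per Dclk1 was still 1.38-fold. All 9 genes together were 0.20% to 0.601% of the TPM of a library.

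Paneth and enterocyte genes had other highest libraries than the goblet genes, though replicate 5 was second highest for both the goblet and the Paneth genes. The 9 Paneth cell genes summed to 8573, 4688, 5349.6, 33248, 19559 and 10288 TPM, highest in replicates 4, 5 and 6 in that order, and the 8 enterocyte genes to 14925, 11275, 5945, 9642, 6632 and 7669 TPM, highest in replicate 1. Over the 6 libraries, r of Muc2 with the median of the tuft list was −0.82 (exact permutation p = 0.0569, adjusted over 4 lists 0.211), with rho −0.71 (exact permutation p = 0.136). It was −0.15 without replicates 1 and 2 and −0.79 after centring (exact permutation p = 0.194). With the Paneth list it was 0.40 (exact permutation p = 0.435, adjusted 0.580) with rho 0.31 (exact permutation p = 0.564), −0.01 without replicates 1 and 2 and −0.73 after centring (exact permutation p = 0.111). With the enterocyte list it was −0.11 (exact permutation p = 0.806) with rho −0.20 (exact permutation p = 0.714), 0.03 without replicates 1 and 2 and −0.93 after centring (exact permutation p = 0.0278). With the enteroendocrine list it was 0.71 (exact permutation p = 0.106, adjusted 0.211) with rho 0.77 (exact permutation p = 0.103), 0.31 without replicates 1 and 2 and 0.60 after centring (exact permutation p = 0.306). The median of this list lay near the floor, from 0 in replicate 1 to 3.09 in replicate 5 on the log2 scale, and 4 of its 9 genes reached a mean of 10 TPM. With the list mean r was 0.54 (exact permutation p = 0.286). Of the tuft list 7 of 13 tested genes had a negative r with an unadjusted p under 0.05, against 702 of all 6985 genes. After median-of-ratios rescaling this was 2 of 13, beside 324 of 6987 genes, and r of Muc2 with the tuft list was −0.52 (exact permutation p = 0.287). Without Rn45s and Gm20594 the count was again 2 of 13, beside 356 of 8190 genes, with r at −0.54 (exact permutation p = 0.276). Of the Paneth and enterocyte lists 0 genes had such a p in either direction as deposited. The most abundant Paneth genes were Defa24, Defa21 and Defa22 at 5147, 2198 and 2087 TPM, antimicrobial defensins whose near-identical copies make single values uncertain, and the most abundant enterocyte genes were Fabp1, Apoa1 and Fabp2 at 7410 (SD 3269), 941 and 631 TPM. Of the enteroendocrine genes Sct led at 384 TPM, followed by Sst and Gcg at 18.5 and 18.2, and of the stem cell genes Olfm4 led at 501, followed by Lgr5 and Slc12a2 at 57.1 and 18.2. Of 4 stem cell genes tested, 1 had a negative r with an unadjusted p under 0.05, beside 702 of all 6985 genes. It was Olfm4 at an r of −0.85 (exact permutation p = 0.0389, adjusted p = 0.404), a value for TPM as deposited only. No list as a whole passed adjustment, and the signs for the Paneth and enterocyte lists depended on the handling of the sets of libraries.

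**Figure D4:**
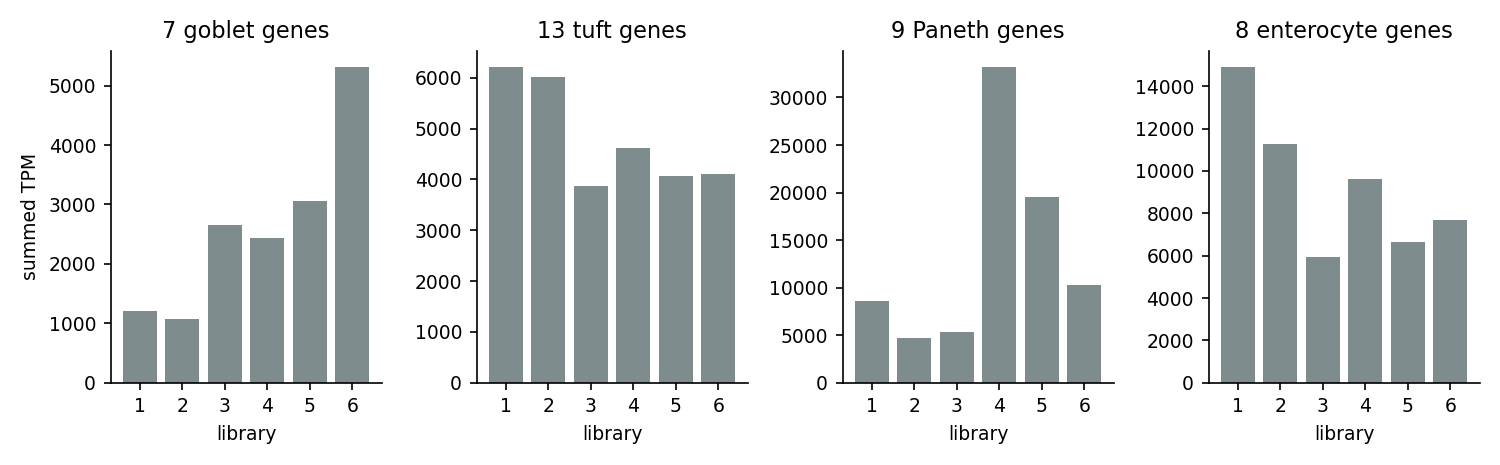
Summed TPM per library of the 7 goblet genes placed with Muc2, 13 tuft, 9 Paneth and 8 enterocyte genes, each panel with its own axis from 0. The goblet sum is highest in replicate 6 at 5319.9 TPM, the Paneth sum in replicate 4 at 33248 TPM, and the tuft and enterocyte sums in replicate 1.

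Genes listed as lymphocyte markers varied in different directions. Gzma, a cytotoxic granule protease of intraepithelial lymphocytes, had 10.4, 35.7, 29.1, 35.96, 141 and 158 TPM, and its r with Muc2 was 0.82 (exact permutation p = 0.0347, adjusted p = 0.397). Ptprc, which encodes the CD45 used to gate cells out, had 74.2 to 171 TPM and r of −0.92 (exact permutation p = 0.0125, adjusted p = 0.353). Both r values are for TPM as deposited and were not recomputed after rescaling. Ptprc made up most of the summed lymphocyte TPM in replicate 1, and it was placed with the tuft list, with SDs of 1.70 relative to Muc2 and 0.25 relative to that list. The lymphocyte genes summed to 118 to 256 TPM, Cd3g had 0 to 13.1 TPM, and Cd3e 1.5 to 11.6 TPM. Gzma was thus high in replicates 5 and 6, of which replicate 6 is the high library of the goblet genes, and its part in the result was not tested.

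The rest of the goblet programme did not show one pattern. Of 9 other mucins listed, 8 had a row and 0 reached a mean of 10 TPM, and Muc5ac, Muc15 and Muc19 were at 0 in every library. Muc4, a transmembrane mucin, was the most abundant of them with 1.51, 4.71, 8.30, 7.62, 11.7 and 14.6 TPM and an r with Muc2 of 0.90 (exact permutation p = 0.0125, outside the adjusted set). It had the same lowest and highest libraries as Muc2. Muc20 and Muc1 followed at means of 0.493 and 0.113 TPM.

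Of 17 mucin glycosylation genes, 12 were tested, with a median r with Muc2 of −0.36 beside −0.29 for all genes. Of these, 0 had a positive r with an unadjusted p under 0.05 and 1 a negative one, beside 112 and 702 of all 6985 genes. It was the fucosyltransferase gene Fut2 at −0.92 (exact permutation p = 0.0139, adjusted p = 0.355), for TPM as deposited only. The 3 most abundant were B4galnt2 at 133 ± 28.3 TPM, Fut2 at 55.3 ± 19.8 and C1galt1c1, the chaperone of core 1 O-glycan synthesis, at 47.4 ± 14.6 (SD, n = 6). By the steadier ratio, 1 of the 12 was placed with Muc2, the core 2 enzyme gene Gcnt3, beside 199 of all 6985 genes.

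Of 9 transcription factors of goblet cells, 4 were tested, with a median r of −0.44, and 0 had an unadjusted p under 0.05. Klf4 had 95.7 ± 22.5, Xbp1 78.5 ± 28.8 and Creb3l1 14.9 ± 6.59 TPM (SD, n = 6). Atoh1, the master regulator of the secretory lineages, had 2.75 to 12.2 TPM, and Spdef, a driver of goblet cell maturation, 2.95 to 15.15 TPM, both under the mean of 10 TPM needed for a test. The range of Spdef was 4.09-fold with its highest value in replicate 6, and its r with Muc2 was 0.39 (exact permutation p = 0.432). Creb3l4, also under 10 TPM on average, had 0.15, 2.87, 2.76, 4.14, 3.77 and 10.9 TPM and an r of 0.84 (exact permutation p = 0.0319), and was placed with Muc2. Atoh1 had an r of 0.24 (exact permutation p = 0.626). Under 10 TPM too, Foxa3 and Foxa2 ran against Muc2, at −0.49 and −0.79 (exact permutation p = 0.318 and 0.0833).

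Of 15 genes of the secretory machinery of the endoplasmic reticulum, 12 were tested, with a median r of 0.58 beside −0.29 for all genes. Of the 12, 1 had a positive r with an unadjusted p under 0.05, beside 112 of all 6985 genes. It was the chaperone gene Hspa5, which had 327, 332, 446, 413, 422 and 458 TPM and an r of 0.92 (exact permutation p = 0.0181, adjusted p = 0.368). Hspa5 was lowest in replicates 1 and 2 and highest in replicate 6, with a range of 1.40-fold. The steadier ratio placed 3 of the 12 with Muc2, beside 199 of all 6985 genes, and 9 with the tuft list. The 3 were the disulphide isomerase family genes Pdia4, Txndc5 and Dnajc10, of which Txndc5 had 7.12, 13.2, 90.4, 47.4, 30.9 and 56.2 TPM. Txndc5 was highest in replicate 3, where Agr2 and Tff3 were second highest. Sec61b and Ssr4, of the translocation channel, had means of 276 ± 58.9 and 256 ± 60.2 TPM.

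Of 20 other goblet genes listed, 19 had a row and 8 were tested, with a median r of 0.19, and 0 had an unadjusted p under 0.05. Dmbt1, a mucin-like scavenger receptor protein, had 664 ± 362 TPM, Guca2a, the peptide guanylin, 538 ± 194 and the chemokine gene Ccl6 114 ± 56.1 (SD, n = 6). Dmbt1 was highest in replicate 3 at 1240.0 TPM and Guca2a in replicate 4 at 792 TPM, so neither had the order of Muc2. Tff1, Tff2, Sval1 and Best2 were at 0 in every library.

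The 10 other genes with the highest r with Muc2 were Rpl22l1 at 0.97, Cox7b at 0.97, Sdccag8 at 0.96, Atp5e at 0.95, H2-Aa at 0.95, Usmg5, C2cd2l, Mrpl33, Rps27l and Mrpl54 at 0.94 each, over 6 libraries. For 9 of them the range was 1.55-fold to 2.75-fold, smaller than that of Muc2. Of all 10, 9 were highest in replicate 6, the exception being Rps27l, and 6 were lowest in replicate 1 and 4 in replicate 2. The wider range was that of H2-Aa, a major histocompatibility complex class II gene, which had 20.8, 14.95, 137, 79.95, 151 and 222 TPM and a 14.0-fold range. It was low in replicates 1 and 2 and highest in replicate 6, like the goblet genes. The 5 genes nearest to Muc13 were Cfb at 1.00, Nf2, Plscr3, Zmiz1 and Tmem45b at 0.99 each.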

How the data were processed

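RNA from sorted ileal tuft cells was prepared with a modified SMART-Seq2 protocol, which amplifies polyadenylated RNA along its length, and the reads were aligned with Bowtie to the mm10 mouse transcriptome. The authors deposited gene expression as TPM computed with RSEM, with 2 decimals for 23420 genes in 6 libraries. Reads that fit more than 1 transcript are shared out by RSEM in estimated proportions, which affects paralogs such as the Clca genes. The labels name a 3′ polyA and a 10X Genomics preparation beside full-length SMART-Seq2 for every sample, and only the last is in the study's methods. DESeq2 is named there for differential expression, and TopHat only in the submitters' processing notes. The strand setting is not given in the sources used here. TPM keeps no depth, so no counting interval or count model was used.

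Values were analysed as log2(TPM + 1). Genes whose mean reached 10 TPM entered the tests across genes. Pearson r with Muc2 was tested by two-sided exact permutation over 720 pairings (36 within the sets of libraries), with Benjamini-Hochberg adjustment over 6985 genes, or over 4 cell type lists, and slopes came from limma 3.58.1 in R 4.3.3. The labels tie each library to a mouse replicate number only, so p-values measure the spread between these 6 libraries, which may be partly technical. The text names all genes of the rule with a row used, the 10 other genes with the highest r with Muc2, the 5 with the highest r with Muc13 and the 3 most abundant of each goblet and cell type list. Retnlb, though placed with the tuft genes, got no such list because it was near 0. Txndc5, Atoh1, Spdef, Creb3l4, Foxa2, Foxa3, Gcnt3, Pdia4, Dnajc10, Cd3e and genes at 0 were named after their values were seen. The genes and lists were chosen with earlier results of these data known. The alternatives were pseudocounts of 0.1 and 0.01, 2 rescalings, other filters, Spearman's rho, Tff3 or Dclk1 as reference, the list mean, limma, centring and leaving out each library. The use of the row spelled Clca1 and of centring for the placement, the ratios without each library and the tuft gene counts after rescaling were chosen after the data were seen. The permutation test was tested on simulated data. The scripts ran on scipy 1.17.1, pandas 2.3.3 and numpy 2.4.6 under Python 3.11.15, and matplotlib 3.10.9 drew the plots. Muc3, Muc16, Fer1l6 and Sh2d6 were not analysed here, nor were the other assays of the study.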

Additional observations from a re-analysis of the deposited data

Results flagged for a closer look

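Each of the 9 goblet genes was screened for a library that stood apart from the other 5, by the gap to its nearest neighbour divided by the whole range. About 1 in 20 such screens is expected to find one by chance. Agr2 in replicate 6 stood apart with a ratio of 0.632, at 901 TPM against at most 386 TPM elsewhere. The ratio was 0.689 after median-of-ratios rescaling and 0.704 without Rn45s and Gm20594, but 0.363 on the log2 scale, and the mean of Agr2 without that library was 227 TPM. Retnlb in replicate 4 stood apart with a ratio of 1.0, being at 0.62 TPM where the other 5 libraries were at 0. With 5 values at 0 the ratio is 1.0 for any other value, so the screen says nothing about Retnlb.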

How the results depend on the processing

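The placement of goblet genes with Muc2 gave 6 or 7 of 9 under every alternative run, with Fcgbp the gene that changed sides and, with the row spelled Clca1, that row. The count of goblet genes with a positive r and an unadjusted p under 0.05, 5 in the report, was 3 after centring within the sets, 2 with Spearman's rho and 2 to 4 when 1 library was left out (2 without replicate 2 or 6, 3 without replicate 1). With 5 libraries only 120 pairings exist. After adjustment the count was 0 under every alternative. The count with a 4-fold range, 6 in the report, was 7 after median-of-ratios rescaling, where Fcgbp reached 4.08-fold. It was 3 to 6 when 1 library was left out, with 3 without replicate 6. The r of Muc2 with the enterocyte list, −0.11 in the report, was 0.17 after median-of-ratios rescaling, 0.15 without Rn45s and Gm20594, 0.14 with the list mean, −0.93 after centring and −0.25 to 0.12 (0.115 without replicate 6, 0.107 without replicate 1) when 1 library was left out. With the Paneth list it was −0.73 after centring, against 0.40. The cause of these differences was not tested. Of the other values for single genes, 153 recomputed under an alternative kept their direction and call or moved by less than 1 SD, 18 lost an unadjusted p under 0.05, 2 gained one and 3 means moved by over 1 SD, all 3 when rescaled without Rn45s and Gm20594. No paired analysis was possible because there is only 1 group. The main limits are 6 libraries, an unknown depth, TPM shares that Rn45s lowers to a different degree in each library, and the absence of unsorted or goblet cell libraries from this group.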
